A study of Homo sapiens with 6 samples.

Results

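The genes described here are 7 genes with ZNF symbols, ZNF222, ZNF229, ZNF416, ZNF778, ZNF394, ZNF673 and ZNF639, taken by symbol from the 405 genes that the authors had selected as differentially expressed. They were measured in Panc-1, an established line of human pancreatic ductal carcinoma cells, grown in DMEM with fetal bovine serum. The cells received, by lipofection, either empty pCIG vector (3 arrays) or pCIG-Gli3T (3 arrays), which carries a dominant-negative repressor form of the Gli transcription factors together with an IRES-GFP cassette. Cells with GFP were collected by sorting at 24 h, so transient expression in sorted cells of 1 line is what was compared, and the RNA was read on Affymetrix arrays as RMA expression on the log2 scale. The labels do not say whether the 3 arrays of a group stand for separate cultures. Their spread may thus be technical, and precision is limited by so few arrays. The members were chosen because the authors had called them different between these same groups. Their differences are therefore given as a description, with no test.

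Of the 7 genes, 6 encode proteins with a Krüppel-associated box (KRAB) and 1, ZNF639, encodes a zinc finger protein without it. KRAB zinc finger proteins bind DNA through arrays of C2H2 zinc fingers, and their KRAB domain recruits the corepressor TRIM28 (KAP1), which brings the methyltransferase SETDB1 and heterochromatin protein 1 to the bound site. They form the largest family of human transcriptional repressors, many of them act on transposable elements, and a large share of their genes stands in tandem clusters on chromosome 19. KRAB membership was taken from textbook knowledge and not from a sequence search. Gli proteins are themselves C2H2 zinc finger proteins but have no KRAB domain.

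The promoters of the KRAB members are shown first, with a short sequence marked that was picked after they had been seen. RefSeq promoter windows of GRCh38.p14, running from 250 bases before to 50 after a gene's start, were matched for 6 of the 7 genes, and ZNF394 had none. ZNF673 was matched under its RefSeq symbol, KRABD4. Capitals mark CGGAAG or its reverse complement CTTCCG, called the ETS core here. These letters are a form of the site that ETS family factors recognise, and other forms were not searched. Sequences run 5′ to 3′ along the strand of the gene. ZNF639 is shown as the member without a KRAB box.
ZNF222, chr19:44025129-44025428, plus strand: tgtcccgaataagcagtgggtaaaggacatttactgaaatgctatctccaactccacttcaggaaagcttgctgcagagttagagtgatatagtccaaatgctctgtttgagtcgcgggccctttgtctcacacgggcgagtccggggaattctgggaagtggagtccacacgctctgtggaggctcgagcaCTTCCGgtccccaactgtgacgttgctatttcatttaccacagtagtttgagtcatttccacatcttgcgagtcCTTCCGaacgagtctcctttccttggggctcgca
ZNF229, chr19:44448423-44448722, minus strand: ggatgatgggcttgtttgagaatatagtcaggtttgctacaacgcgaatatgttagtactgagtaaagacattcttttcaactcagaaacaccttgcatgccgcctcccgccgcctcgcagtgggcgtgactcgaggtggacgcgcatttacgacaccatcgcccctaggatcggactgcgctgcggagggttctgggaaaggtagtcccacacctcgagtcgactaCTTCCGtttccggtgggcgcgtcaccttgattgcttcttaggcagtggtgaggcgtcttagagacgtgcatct
ZNF416, chr19:57578862-57579161, minus strand: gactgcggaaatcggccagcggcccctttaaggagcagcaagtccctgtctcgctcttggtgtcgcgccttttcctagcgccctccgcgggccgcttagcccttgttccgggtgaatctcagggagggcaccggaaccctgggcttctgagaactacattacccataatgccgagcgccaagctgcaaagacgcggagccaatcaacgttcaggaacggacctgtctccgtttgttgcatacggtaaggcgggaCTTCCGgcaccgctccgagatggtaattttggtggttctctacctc
ZNF778, chr16:89217453-89217752, plus strand: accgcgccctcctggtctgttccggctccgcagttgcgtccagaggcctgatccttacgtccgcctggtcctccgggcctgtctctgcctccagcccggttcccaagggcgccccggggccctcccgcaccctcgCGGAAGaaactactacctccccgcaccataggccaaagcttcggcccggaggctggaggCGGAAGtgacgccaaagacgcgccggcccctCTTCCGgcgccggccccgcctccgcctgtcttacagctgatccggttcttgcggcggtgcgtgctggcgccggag
ZNF673, chrX:46447047-46447346, plus strand: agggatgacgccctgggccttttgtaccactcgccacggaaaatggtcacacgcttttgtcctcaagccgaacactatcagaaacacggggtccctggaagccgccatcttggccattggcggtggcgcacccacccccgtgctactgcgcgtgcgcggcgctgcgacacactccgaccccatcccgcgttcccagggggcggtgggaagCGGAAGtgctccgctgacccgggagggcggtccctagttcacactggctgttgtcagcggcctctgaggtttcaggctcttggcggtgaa
ZNF639, chr3:179322626-179322925, plus strand: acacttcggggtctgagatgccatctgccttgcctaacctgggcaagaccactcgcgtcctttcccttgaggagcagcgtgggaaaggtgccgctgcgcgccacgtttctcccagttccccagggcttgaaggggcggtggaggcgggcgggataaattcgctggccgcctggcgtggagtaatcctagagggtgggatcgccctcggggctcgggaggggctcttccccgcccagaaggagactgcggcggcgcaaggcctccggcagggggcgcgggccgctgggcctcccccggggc

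All 5 KRAB members with a promoter held the ETS core, as spelled here, in at least 1 window. ZNF639 held these letters in neither of its 2. ZNF778 had 3 copies and ZNF222 had 2, of which 1 lay 58 bases before the gene's start. The first base of the copy in ZNF673 lay 40 bases, and that in ZNF229 23 bases, before the start, whereas the copy in ZNF416 lay just after it. Counted by gene, the ETS core was in 22.6% of all 27305 genes with a promoter window. It was in 55.1% of 430 genes with ZNF symbols, whether or not they were selected here or have a KRAB box. Of the 11 KRAB genes of the authors' table with a window, 10 held it (90.9%). This motif was 1 of 8 searched on both strands and was picked out after the promoters had been seen. Its share in these genes is therefore no test of a link to their direction. Shares in the other genes of the authors' table were not counted. The others were the GLI core and the sites named NRF1, CCAAT box, YY1, AP-1, CRE and GC box. The first letters of an ETS core can overlap the end of a GC box. Of the 11 KRAB genes, 6 held the GC box and 5 the CCAAT box, against 60.4% and 44.4% of ZNF windows. Over all windows these shares were 45.0% and 34.6%. AP-1 was in 2 of the 11, NRF1 and YY1 in 1 each, and CRE and the GLI core in 0. The GLI core ACCACCC, or its reverse complement, was in 0 of the 6 members with a promoter, against 4.77% of all 35116 windows. This says only that these letters are not in the windows of these members. The AP-1 site TGACTCA, or its reverse complement, was in 1 member, ZNF222, against 4.95% of all windows. In these comparisons with shares of windows, genes were counted over any of their windows, so the units are unlike. The windows of the KRAB members held 14 to 33 CpG dinucleotides, against a median of 22 in windows of ZNF genes and 14 in all windows. A match is a description of letters and shows no binding.

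GLI3 was read first as a check of the labels. Its probe set read 9.20, 9.12 and 9.31 in empty vector replicates 1, 2 and 3 and 8.0, 7.92 and 7.71 in the arrays labelled Gli3T, a difference of -1.34 ± 0.10 log2 (SE, n = 3 per group). PTCH1, the hedgehog receptor gene and a known Gli target, had a mean of 8.11 with empty vector and 9.02 under the Gli3T label. This rise of 0.91 ± 0.12 log2 (SE) is opposite to the fall that a repressor of Gli targets would give. Neither a rise of GLI3 nor a fall of PTCH1 was thus seen, so neither gene bore out the labels. Where the GLI3 probes lie relative to the construct was not known here. Whether the labels are right was not tested further, and every direction below rests on them. Over all 32321 probe sets the arrays labelled Gli3T correlated with each other at 0.995 to 0.996, and the empty-vector arrays at 0.981 to 0.991. Empty vector replicate 1 stood apart, with 0.980 to 0.985 against the other 5 arrays. A probe set had a median SD of 0.18 log2 over the empty-vector arrays, against 0.08 over those labelled Gli3T. The median difference over all probe sets was -0.05 log2. The markers listed for ductal carcinoma cells and for other cell types were not among the named genes, so the cell type and admixture were not checked here.

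The 6 KRAB members were all lower in the arrays labelled Gli3T, by 0.60 to 1.12 log2 or 1.51- to 2.18-fold, and ZNF639 was higher by 0.79 log2 or 1.72-fold. In each of the 7 genes the 3 values under 1 label lay wholly above the 3 under the other. Among all probe sets, 13% were lower and 11.4% were higher without overlap. By limma, a linear model fitted over all probe sets with Benjamini-Hochberg adjustment at 0.05, 6 members were called lower, where 1.06% of all probe sets were, and 1 higher, where 1.4% were. Nothing is read from these counts, since the members had been selected on this contrast. Of the 12 KRAB genes in the authors' table, the 6 members and 6 others, all 12 were called lower with all arrays, among 798 probe sets called in either direction. With 1 array left out the calls over all probe sets ran from 0 to 2178, and those of the KRAB genes followed them. The KRAB genes called were 12 (2178 of all probe sets) without empty vector replicate 1, 3 (548) without replicate 2 and 0 (69) without replicate 3. Without a Gli3T array 0 KRAB genes were called, where the whole array had 0, 1 and 0 calls without replicates 1, 2 and 3. In these fits with 0 KRAB genes called by limma, 3469 to 5740 of all probe sets had an unadjusted p under 0.05, the 12 selected KRAB genes among them. The median difference of the 12 lay between -0.90 and -0.70 log2 in the fits that left out an array. With each array centred on its median 3 KRAB genes were called (559 of all probe sets), and with quantile normalization 10 (939). Fewer cells with a transcript and less of it per cell cannot be told apart in these bulk samples.

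**Figure D1:**
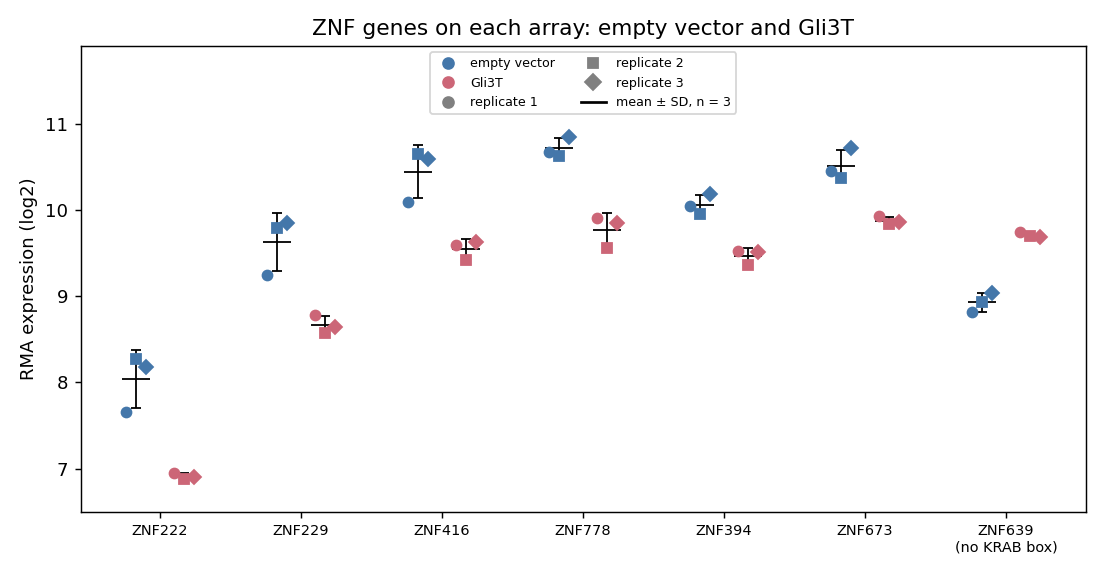
RMA expression (log2, vertical axis) of the 7 genes on each of the 6 arrays, with empty vector in blue, Gli3T in red, a marker shape per replicate, and bars for the mean ± SD (n = 3). The blue points lie above the red ones in the 6 KRAB genes and below them in ZNF639, and empty vector replicate 1 lies apart from replicates 2 and 3 in ZNF222, ZNF229 and ZNF416.

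ZNF222, ZNF229 and ZNF416 are the members on chromosome 19. ZNF222, a KRAB zinc finger gene, read 7.65, 8.27 and 8.18 in empty vector replicates 1, 2 and 3 and 6.95, 6.88 and 6.91 under the Gli3T label (probe set 8029353). The empty-vector mean was 8.04 ± 0.34 (SD, n = 3) and the Gli3T mean 6.91 ± 0.03 (SD, n = 3), a difference of -1.12 ± 0.19 log2 (SE). This was the largest of the 7, and it ranked 241 by size among the 32321 probe sets. Both means lay below the medians of the arrays, which ran from 8.38 to 8.53, so ZNF222 was a dim gene here.

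ZNF229 is a KRAB zinc finger gene of the same cluster as ZNF222. It read 9.24, 9.79 and 9.85 with empty vector and 8.78, 8.57 and 8.64 under the Gli3T label (probe set 8037467). Its difference was -0.96 ± 0.20 log2 (SE). In the RefSeq order 11 protein-coding genes lie between ZNF222 and ZNF229. All 11 have ZNF symbols, and 0 of them were among the named genes, so they were not analysed here.

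ZNF416, whose product has been studied as a regulator of fibroblast activation, read 10.09, 10.65 and 10.59 with empty vector and 9.60, 9.41 and 9.63 under the Gli3T label (probe set 8039664). Its difference was -0.90 ± 0.19 log2 (SE). ZNF550, the protein-coding gene next to it in RefSeq and itself a KRAB zinc finger gene, read 9.60, 9.60 and 9.72 against 8.94, 8.90 and 8.93. ZNF550 thus differed by -0.72 ± 0.04 log2 (SE), with a tighter spread than its neighbour in both groups. Of the 8 nearest ZNF genes around ZNF416, 1 was named in the authors' table, which was ZNF550. Of the 8 around ZNF222, and of the 8 around ZNF229, 0 were named there.

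In all 3 of these genes empty vector replicate 1 was the lowest empty-vector array, yet it still lay above every array labelled Gli3T. Replicate 1 minus the mean of replicates 2 and 3 was -0.58 log2 in ZNF222, -0.58 in ZNF229 and -0.53 in ZNF416. Without that array the differences were -1.31, -1.15 and -1.07 log2.

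The other KRAB members lie on chromosomes 16, 7 and X and did not show this gap. ZNF778, a KRAB zinc finger gene on chromosome 16, read 10.66, 10.62 and 10.85 with empty vector and 9.91, 9.55 and 9.85 under the Gli3T label (probe set 7997904). It differed by -0.94 ± 0.13 log2 (SE), about the size of ZNF229.

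ZNF394 encodes a protein with both a SCAN and a KRAB domain that lowered AP-1 and serum response element reporters when overexpressed in cells. It read 10.05, 9.95 and 10.18 with empty vector and 9.52, 9.36 and 9.51 under the Gli3T label (probe set 8141305), a difference of -0.60 ± 0.09 log2 (SE). This was the smallest of the 7 members. Of the 11 genes listed for AP-1 and the immediate early response, 4 were among the named genes and all 4 were lower. Their differences were -1.42 ± 0.11 log2 (SE) for ATF3, -0.88 ± 0.05 for EGR1, -0.77 ± 0.11 for FOS and -0.67 ± 0.14 for FOSB. These genes too had been selected on this contrast, as had 136 lower genes among the 398 named genes with values.

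ZNF673, listed as KRABD4 in RefSeq, encodes a short protein with a KRAB domain and no zinc fingers, so it lacks the family's DNA-binding part. It read 10.45, 10.37 and 10.72 with empty vector and 9.93, 9.84 and 9.86 under the Gli3T label (probe set 8166989). Its difference was -0.64 ± 0.11 log2 (SE), and its lowest empty-vector array was replicate 2, not replicate 1.

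ZNF639 (ZASC1), a C2H2 zinc finger gene of a region on chromosome 3 that is often amplified in squamous cell carcinomas, went the other way. It read 8.81, 8.93 and 9.04 with empty vector and 9.75, 9.70 and 9.69 under the Gli3T label (probe set 8084035). Its difference was 0.79 ± 0.07 log2 (SE), with an SD of 0.03 among the arrays labelled Gli3T, the same as in ZNF222 and below that of the other 5 members.

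**Figure D2:**
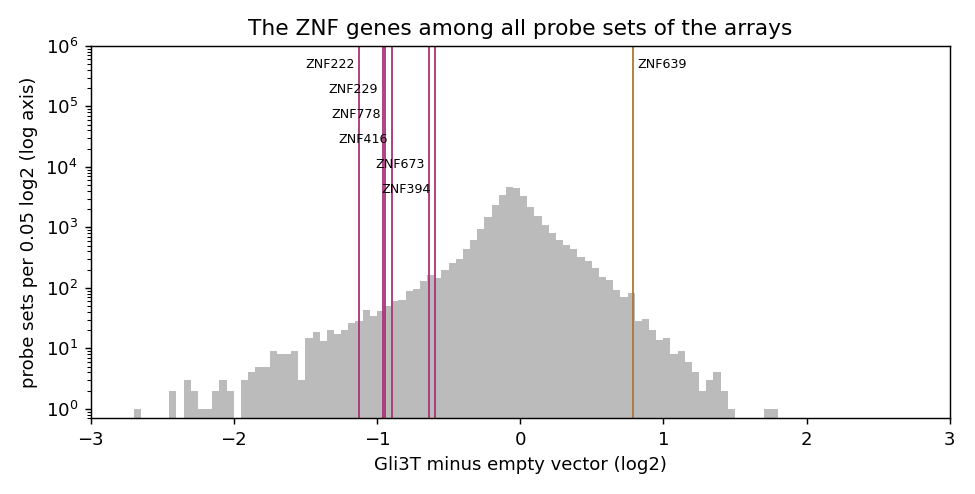
Number of probe sets per 0.05 log2 (vertical axis, log scale) by their difference, Gli3T minus empty vector (log2), over all 32321 probe sets, with a line for each of the 7 genes. The 6 KRAB genes lie between -1.12 and -0.60 in the left flank and ZNF639 at 0.79 in the right flank.

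The authors' table held 13 genes with ZNF symbols, of which 12 are KRAB genes and all 12 were lower, with a median of -0.77 log2 and a range of -1.12 to -0.60. Besides the members these were ZNF57 (-0.85 ± 0.18 log2, SE), ZNF77 (-0.79 ± 0.17), ZNF317 (-0.75 ± 0.12), ZNF550, ZNF26 (-0.71 ± 0.12) and ZNF3 (-0.62 ± 0.07). Among all 398 named genes with values, 136 were lower and 262 higher. The median of those lower genes was -0.82 log2, and that of all probe sets -0.05.

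Another 9 genes of the authors' table encode C2H2 zinc finger proteins with no KRAB domain. With ZNF639 they make 10, put together after their values had been seen, and 5 of them were lower and 5 higher. Lower were GLI3, EGR1, IKZF5 (-0.82 ± 0.17 log2, SE), GZF1 (-0.76 ± 0.13) and PRDM1, the repressor Blimp-1 (-0.61 ± 0.09). Higher were the Krüppel-like factors KLF3 (0.94 ± 0.12) and KLF12 (0.74 ± 0.14), the X-linked activator ZFX (0.77 ± 0.13) and PATZ1 (0.59 ± 0.09). Whether the KRAB genes and these genes differ in direction was not tested, as all had been selected on the contrast. Of the 22 genes listed as KRAB cofactors, TRIM28 and SETDB1 among them, 0 were among the named genes and none was analysed here.

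**Figure D3:**
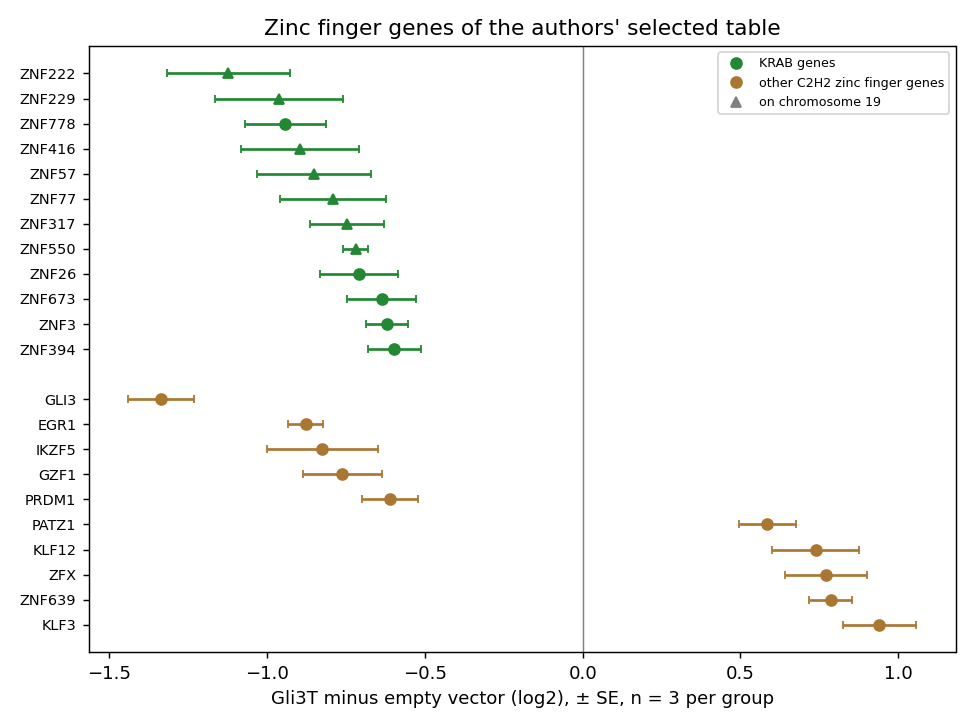
Difference, Gli3T minus empty vector (log2, horizontal axis, bars ± SE, n = 3 per group), for the 12 KRAB genes (green) and the 10 other C2H2 zinc finger genes (brown) of the authors' table, with triangles for genes on chromosome 19. The 12 KRAB genes lie between -1.12 and -0.60 and the others on both sides of 0, from GLI3 at -1.34 to KLF3 at 0.94.

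Chromosome 19 held 7 of the 12 KRAB genes (58.3%), against 250 of the 517 protein-coding ZNF genes in RefSeq (48.4%), taken with or without a KRAB box. These shares are near each other, and the share of RefSeq KRAB genes alone was not counted. ZNF57 and ZNF77, like ZNF550 and ZNF416, are direct neighbours there, with 0 protein-coding genes between them in RefSeq. ZNF57 read 9.91, 10.41 and 10.30 with empty vector and 9.50, 9.17 and 9.40 in the arrays labelled Gli3T. ZNF77 read 8.69, 9.13 and 9.16 against 8.35, 8.13 and 8.13. In both genes replicate 1 was again the lowest empty-vector array. Near-identical stretches of clustered zinc finger genes may share probe signal, and the probe sequences were not used here.

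Empty vector replicate 1 read more than 0.3 log2 below the mean of replicates 2 and 3 in 6 of the 7 KRAB genes on chromosome 19, ZNF550 being the exception, and in 0 of the 5 on other chromosomes. The median of this gap was -0.45 log2 in the former and -0.09 in the latter. It was -0.02 log2 among all 136 lower named genes, of which 19 (13.97%) passed the same limit. It was -0.18 log2 among the 262 higher named genes, of which 29.8% passed, and 17.3% of all probe sets did. In the other 10 C2H2 genes 5 passed it, none of them on chromosome 19. The share among chromosome 19 genes outside the KRAB list was not counted. Among those genes FOSB went the other way, with replicate 1 higher by 0.35 log2. The limit of 0.3 and the split by chromosome were set with the values in view. The part of this array in the results was not tested. Without it the median difference of the KRAB genes was -0.90 log2, larger in size as must follow from leaving out a low empty-vector array.

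**Figure D4:**
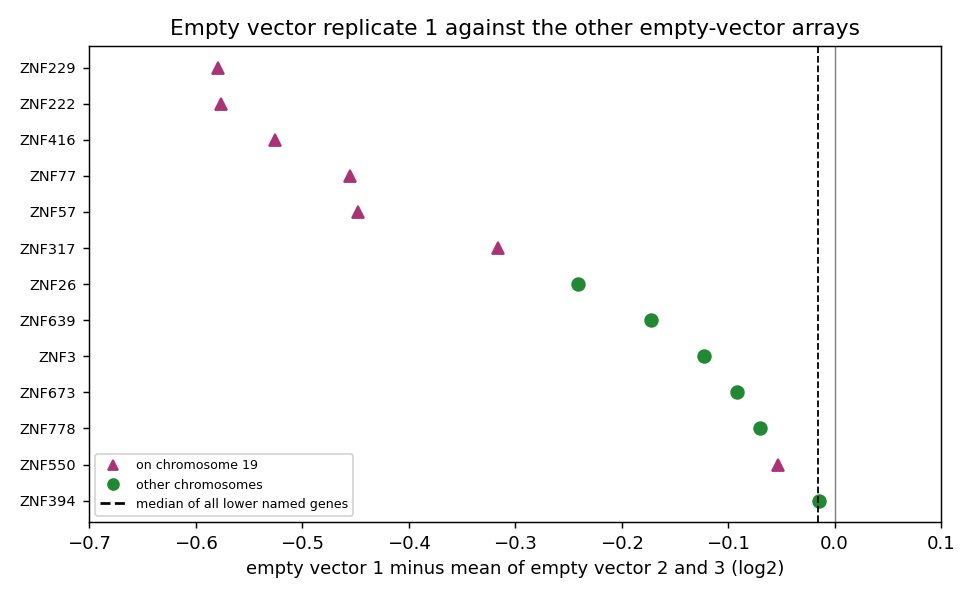
Value of empty vector replicate 1 minus the mean of replicates 2 and 3 (log2, horizontal axis) for the 13 ZNF genes, triangles on chromosome 19 and circles elsewhere, with a dashed line at the median of the lower named genes (-0.02). Of the chromosome 19 genes, 6 lie below -0.3 and ZNF550 lies at -0.05.

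Within the arrays labelled Gli3T, replicate 2 was the lowest in all 6 KRAB members and in 11 of the 12 KRAB genes. It was also the lowest in 76.5% of the lower named genes, in 79.0% of the higher named genes and in 38.8% of all probe sets. The mean of the 6 KRAB members, each centred on its own mean, was 0.22, 0.47 and 0.59 log2 in empty vector replicates 1, 2 and 3 and -0.36, -0.53 and -0.40 in the arrays labelled Gli3T. Of 392 other named genes, those most like this pattern by Pearson correlation over the 6 arrays were ARL14, a small GTPase gene, at 0.999 and the small nucleolar RNA SNORA14B at 0.997. ZNF317 (0.996), the inositol phosphate kinase gene IP6K2 (0.995) and LOC147727 (0.995) followed. The arrays form separate groups, which sets most of such a correlation, and 14 of all 32321 probe sets reached the value of the fifth.

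The authors' deposited table carried, in front of the 6 KRAB members, a small value that by its size and rank followed the adjusted p of limma, with no header to name it. It ran from 0.0216 for ZNF778 to 0.0447 for ZNF416, and over all 12 KRAB genes from 0.0146 for ZNF550 to 0.0473 for ZNF77. All named genes differed by at least 0.58 log2, near the size of a 1.5-fold change. ZNF394 lay nearest that limit among the ZNF genes. A further 149 probe sets passed an adjusted p of 0.05 and 1.5-fold but were unnamed here, so ZNF genes just outside the selection could not be given.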

How the data were processed

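Expression was measured in 6 samples, 3 per group by their titles. The authors deposited log2 expression values for 32321 probe sets. The submitters' processing notes name RMA, oligo and limma with no version, and the annotation and build are not given in the sources used here. RMA corrects background, normalises between arrays and pulls the low values together, so small differences of dim genes are compressed. The authors' deposited table of 405 selected genes, also log2 values with other values mixed into its first sample column, gave the gene names, and 398 of its probe sets were in the table of all probe sets. Other probe sets are unnamed here.

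The selected table was set against the table of all probe sets by probe set. In 139 displaced rows, 6 of them members, a small value stood first (1 or less in the first sample column) and each array stood 1 cell to the right. Read that way, the cells of the first 5 arrays differed from the complete table by at most 0.0474 log2 in the 135 displaced rows compared, and by at most 0.0240 in the members. The last sample column had slipped along the rows. In 239 of the 263 ordinary rows compared it lay over 0.2 log2 from Gli3T replicate 3. Values were therefore taken from the complete table. There was 1 unnamed column, not used.

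limma 3.58.1 in R 4.3.3 was fitted to all probe sets, with group as the only term and a call at an adjusted p of 0.05. Control probe sets could not be told and stayed in. Means, SDs and SEs used Python 3.11.15 and pandas 2.3.3. Data were simulated for the 32321 probe sets with their real means and a pooled SD shared by both groups, with noise drawn independently. On these data the fit called 34.0% of planted differences of 0.6 log2, 58.0% of 1, 94.0% of 2 and 0.0156% of unchanged probe sets. The real arrays had a median SD of 0.18 log2 with empty vector and 0.08 under the Gli3T label. Empty vector replicate 1 also stood apart, so these rates may not hold for the real arrays. The KRAB box was to be found in RefSeq proteins, which were not used here, so it came from textbook knowledge, and lists were limited to named genes.

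The genes named were the 7 members, the other ZNF genes of the authors' table, the nearest ZNF genes on chromosome 19, the largest called differences, the 5 most alike in pattern, and hedgehog and cofactor genes. The other C2H2 genes and the immediate early genes named by value were added to it. The members and lists were chosen with earlier results of these data known.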

Additional observations from a re-analysis of the deposited data

How the results depend on the processing

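Differences were recomputed with arrays centred on their medians or quantile normalised, bright probe sets only, a mean trend, array weights, the replicate block, group medians (added after seeing the data), the realigned authors' table, and each array left out. The realigned table gave only the first 5 arrays, so it lacked Gli3T replicate 3 and nearly repeated the fit without that array. Of 88 differences that these settings could move, 87 moved by less than 1 SD and 0 reversed, while 22 more repeat the main value by construction; ZNF394 moved to -0.48 log2 with array weights. Leaving out arrays could not turn a direction, as the groups did not overlap. The 12 ZNF genes called lower, all KRAB genes, fell to 3 with median centring and to 2 with the replicate block, and the 1 called higher fell to 0 with the block. The KRAB count was 10 with quantiles, 11 for bright probe sets, and 12 with the trend, with array weights and at 1.5-fold. Same-numbered arrays' deviations correlated at -0.30, -0.14 and 0.04, which gave no sign of pairing but cannot exclude it with 3 arrays per group. Over all probe sets the block left 240 calls, against 798. With 1 array left out, 0 to 12 ZNF and 0 to 12 KRAB genes were called lower, 0 to 1 ZNF genes higher and 0 KRAB genes higher. The count was 12 without empty vector replicate 1, 3 without replicate 2, 0 without replicate 3 and 0 without any of the Gli3T arrays, where limma called 0 to 1 of all probe sets. At an unadjusted p of 0.05, the 13 ZNF genes, selected on this contrast, passed in each of those fits, as did 3469 to 7485 of all probe sets. Over all probe sets, calls numbered 559 with median centring, 939 with quantiles, 1292 with the trend, 7104 with array weights, 1446 for bright probe sets, and 69 to 2178 without an empty-vector array. Leaving out arrays gave a KRAB median of -0.90 to -0.70 log2 and ZNF639 0.73 to 0.84; the ranges were -1.31 to -1.0 for ZNF222, -1.15 to -0.85 for ZNF229, -1.07 to -0.79 for ZNF416, -1.01 to -0.83 for ZNF778, -0.65 to -0.54 for ZNF394 and -0.71 to -0.53 for ZNF673. ZNF222 was below the brightness limit. Other KRAB box limits and counting by probe set were not run, as no proteins were used and each named gene had 1 probe set with a name here. Further probe sets of these genes may be among the unnamed ones. The cause of these changes was not tested. Signal over background was not known.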
